A study of Mus musculus with 6 samples.

Results

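Cytosolic ribosomal protein genes were taken from the deposited expression table by symbol: every row named Rpl or Rps with a number, with or without an ending a, x, l or al, and the 4 rows Rplp0, Rplp1, Rplp2 and Rpsa, if its mean over all libraries was at least 1 FPKM. FPKM divides a gene's fragments by transcript length and by the mapped fragments of the library, so it is a level per length within one library. The rule gave 82 of 18518 gene symbols, 50 of the large (60S) subunit and 32 of the small (40S) subunit, and no symbol of this form lay under the threshold. Rpl3l, at a mean of 4.20 FPKM, and Rpl29, at 4.47 FPKM, lay nearest to it. Of the 80 standard mammalian ribosomal proteins, 76 were among the members, 46 of 47 in the large and 30 of 33 in the small subunit. The other 4 carried symbols of another form, and 6 members (Rpl3l, Rpl10l, Rpl36al, Rpl39l, Rps27l and Rps4l) were paralogs or copies of standard ones.

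RNA sequencing was done on E14Tg2A cells, an established mouse embryonic stem cell line, in 3 wild-type (WT) libraries and 3 libraries of cells with Bach1 disrupted by CRISPR/Cas9 (BACH1-KO). Both genotypes were kept for 2 days in DMEM with fetal bovine serum and 200 units/ml of murine leukemia inhibitory factor, a cytokine that sustains self-renewal. The knockout cells were selected with puromycin after a lentiviral CRISPR plasmid had been transfected, single-cell clones were sorted, and the labels do not say whether the knockout libraries came from 1 clone. The table's columns name the genotype only, and no column could be matched to one sample. Nothing says that the libraries came from separate cultures, so p-values measure only the variation among these 6 libraries, and that may be technical.

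A ribosome holds one copy of most ribosomal proteins, so their mRNAs are among the most abundant in a growing cell and are made in similar amounts. The mRNAs carry a 5-prime terminal oligopyrimidine (TOP) tract at the cap, through which mTORC1 and LARP1 control their translation and stability as a group. Some ribosomal proteins also act outside the ribosome or have a paralog used in particular tissues, such as Rpl3l in striated muscle and Rpl10l and Rpl39l in the male germ line. BACH1 is a heme-binding transcription factor that represses genes with an antioxidant response element.

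Bach1 itself stood at 7.97, 8.39 and 8.47 FPKM in WT and 10.5, 10.4 and 10.4 FPKM in BACH1-KO, so its transcript was higher in the libraries labelled BACH1-KO (log2 fold change 0.30, adjusted p = 5.15e-04, limma), and a transcript level cannot check a frameshift edit. The summed FPKM was 762745 to 805118 over the 6 libraries, and depths relative to one another, read from the steps of low values, were 1 to 1.18. All 8 embryonic stem cell markers listed were at or above 1 FPKM in both groups, with 7 lower and 1 higher in BACH1-KO. Of 16 hepatocyte markers, 15 were tested and all 15 were higher in BACH1-KO. Only 1 of the 16, Trf, averaged 1 FPKM or more in WT, against 15 in BACH1-KO. Most thus reached the level for testing through the knockout libraries alone, so their direction largely follows from the filter. Afp was not tested and was listed at 0 in every knockout library (0.0217 FPKM on average in WT). In BACH1-KO the list came to 918 to 952 FPKM (0.12% to 0.125% of the summed FPKM) against 11.3 to 17.3 FPKM in WT. Apoh was listed at 0 in every WT library. The 9 fibroblast markers summed to between 199 and 219 FPKM in WT and between 66.8 and 69.8 FPKM in BACH1-KO. Vim made up most of both sums (186 ± 9.31 and 54.9 ± 1.35 FPKM). Of the 9, 3 were tested and all 3 were lower. The other 6 averaged under 1 FPKM and were not tested: Col1a1 lay lower in every knockout library, and Col1a2, Col3a1, Dcn, Lum and Postn lay higher, with Col3a1 and Lum listed at 0 in WT and Dcn at 0.0664 and 0.764 FPKM. The part of these marker changes in the results on ribosomal protein genes was not tested. In bulk RNA, fewer cells of a type and less RNA per cell cannot be told apart.

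The ribosomal protein genes held more of the summed FPKM in BACH1-KO than in WT, and the small subunit accounted for most of that difference. FPKM is divided by transcript length, so these percents are not shares of the library's fragments. All members together made up 28.1%, 28.6% and 28.7% of the summed FPKM in the WT libraries and 31.7%, 31.7% and 31.6% in the BACH1-KO libraries. The groups did not overlap (28.5% ± 0.314 against 31.7% ± 0.0784, SD, n = 3 each). Large-subunit members held 16.2% ± 0.137 in WT and 17.2% ± 0.0358 in BACH1-KO. Small-subunit members held 12.3% ± 0.177 in WT and 14.5% ± 0.0434 in BACH1-KO. In FPKM as deposited, the small-subunit sum was 97785 ± 2652 in WT and 111112 ± 518 in BACH1-KO, while the large-subunit sum was 129297 ± 2745 and 131126 ± 541. Over the same libraries the sum of all other genes went from 570547 ± 5033 to 521871 ± 919 FPKM. The ratio of small- to large-subunit FPKM, which a change of library size cannot alter, was 0.751, 0.758 and 0.759 in WT and 0.847, 0.848 and 0.846 in BACH1-KO. This ratio also did not overlap between the groups. With 3 libraries against 3, an exact permutation test cannot give a p under 0.1.

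**Figure D1:**
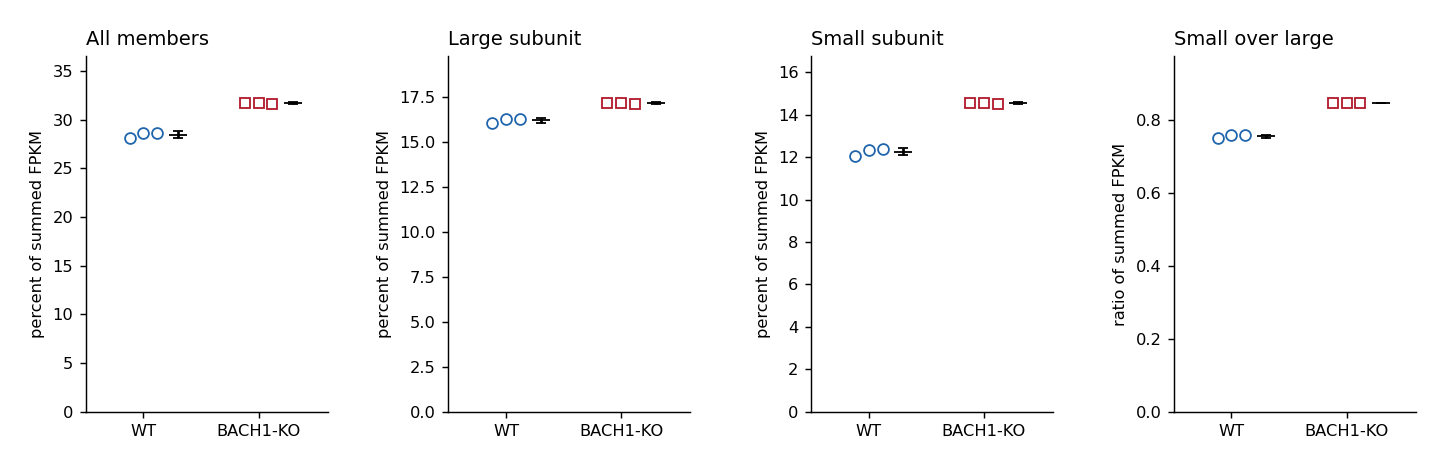
Shown are all 82 members, the 50 large-subunit members and the 32 small-subunit members, each as a percent of the summed FPKM of the library. The last panel is the ratio of small to large. Open symbols are libraries, the bars beside them are mean ± SD (n = 3), and every axis starts at 0. The 3 BACH1-KO libraries lie above the 3 WT libraries in each panel, by more in the small-subunit panel (12.3% against 14.5%) than in the large (16.2% against 17.2%).

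The order of the members by level was nearly the same in both groups (Pearson r 0.989 between the log2 mean levels, over 82 genes measured in the same libraries). Of the 82 members, 67 averaged 1000 FPKM or more and 9 were under 200 FPKM. Rpl23a, at the rim of the peptide exit tunnel, had the highest mean, with 8167, 8666 and 8343 FPKM in WT and 7835, 7698 and 7995 FPKM in BACH1-KO. The groups did not overlap, and Rpl23a fell by 0.10 on the log2 scale (adjusted p = 0.0381, limma), but the call was lost without any 1 library other than the first WT one (adjusted p between 0.0531 and 0.145) and the change was 0 under quantile normalization and 0.03 with libraries scaled to equal FPKM of the other genes. Rps26, near the mRNA exit channel, stood at 6701, 6594 and 6551 FPKM in WT and 7355, 7483 and 7584 FPKM in BACH1-KO. It was higher in every knockout library (log2 fold change 0.18, adjusted p = 0.00105, limma). Rpl13 (6256 ± 129 against 6983 ± 113 FPKM) rose, and Rpl41 (6980 ± 457 against 6283 ± 178 FPKM), the shortest protein of the ribosome, fell. The call of Rpl41 (adjusted p = 0.0282, limma) was lost without the first or the third WT library (0.0690 and 0.0801) or the first or the second knockout library (0.0671 and 0.103), and its change was -0.02 under equal FPKM of the other genes. Under quantile normalization Rpl13 and Rps26 did not pass. Rps20, the last of the 5 highest, is described with the small-subunit head.

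**Figure D2:**
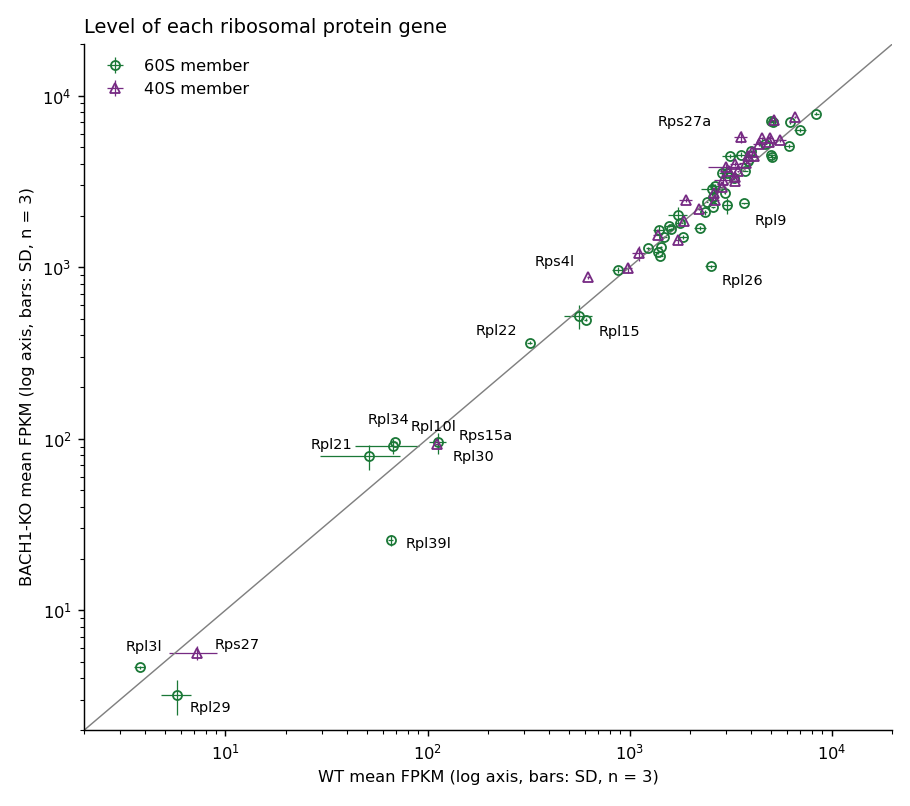
Mean FPKM of each of the 82 members in WT (horizontal, log axis) and BACH1-KO (vertical, log axis), with SD bars over 3 libraries, circles for large- and triangles for small-subunit members and the diagonal marking equal levels. Most members lie close to the diagonal above 1000 FPKM; Rpl26, Rpl9 and Rpl39l lie below it and Rps27a above it.

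Single members moved both ways. In limma on log2(FPKM + 1), where only an adjusted p under 0.05 is called higher or lower, 34 members were higher in BACH1-KO, 21 were lower and 27 did not pass. That is 67.1% of members called, against 77% of all 12187 genes tested (37.3% higher and 39.7% lower), so a call alone does not set these genes apart from the table. The libraries of the 2 groups did not overlap for 33 members higher and 23 lower, against 38.4% higher and 40.9% lower, 79.3% in either direction, of all tested genes. The median log2 fold change of members was 0.07, from -1.33 to 0.70, beside -0.01 over all tested genes. Among the 49 other genes at 1000 FPKM or more, 10 were higher and 30 lower, with a median of -0.33, while the 67 members at that level had 28 higher and 17 lower and a median of 0.08. When libraries were scaled to equal FPKM of the non-member genes, which moved the median of all tested genes to 0.10, the counts became 55 higher and 13 lower, so the share of higher among called went from 61.8% to 80.9% in the members and from 48.4% to 59.0% in all tested genes.

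Most of the changes were small. The mean in BACH1-KO lay between 0.8 and 1.25 times that in WT for 62 of 82 members, and only Rpl39l and Rpl26 changed to under a 0.5-fold level. A limma test against a fold change of 1.2 (treat) called 7 members higher and 5 lower, against 22.4% higher and 22.3% lower, 44.7% in all, of the tested genes. These same 12 passed in each of the 14 alternative settings in which they were tested: Rpl10l, Rps4l, Rpl39, Rps27a, Rpl12, Rps20 and Rpl32 higher, and Rpl29, Rpl39l, Rpl26, Rpl27 and Rpl9 lower (Rpl29 lies under one alternative's level filter and was not tested there).

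**Figure D3:**
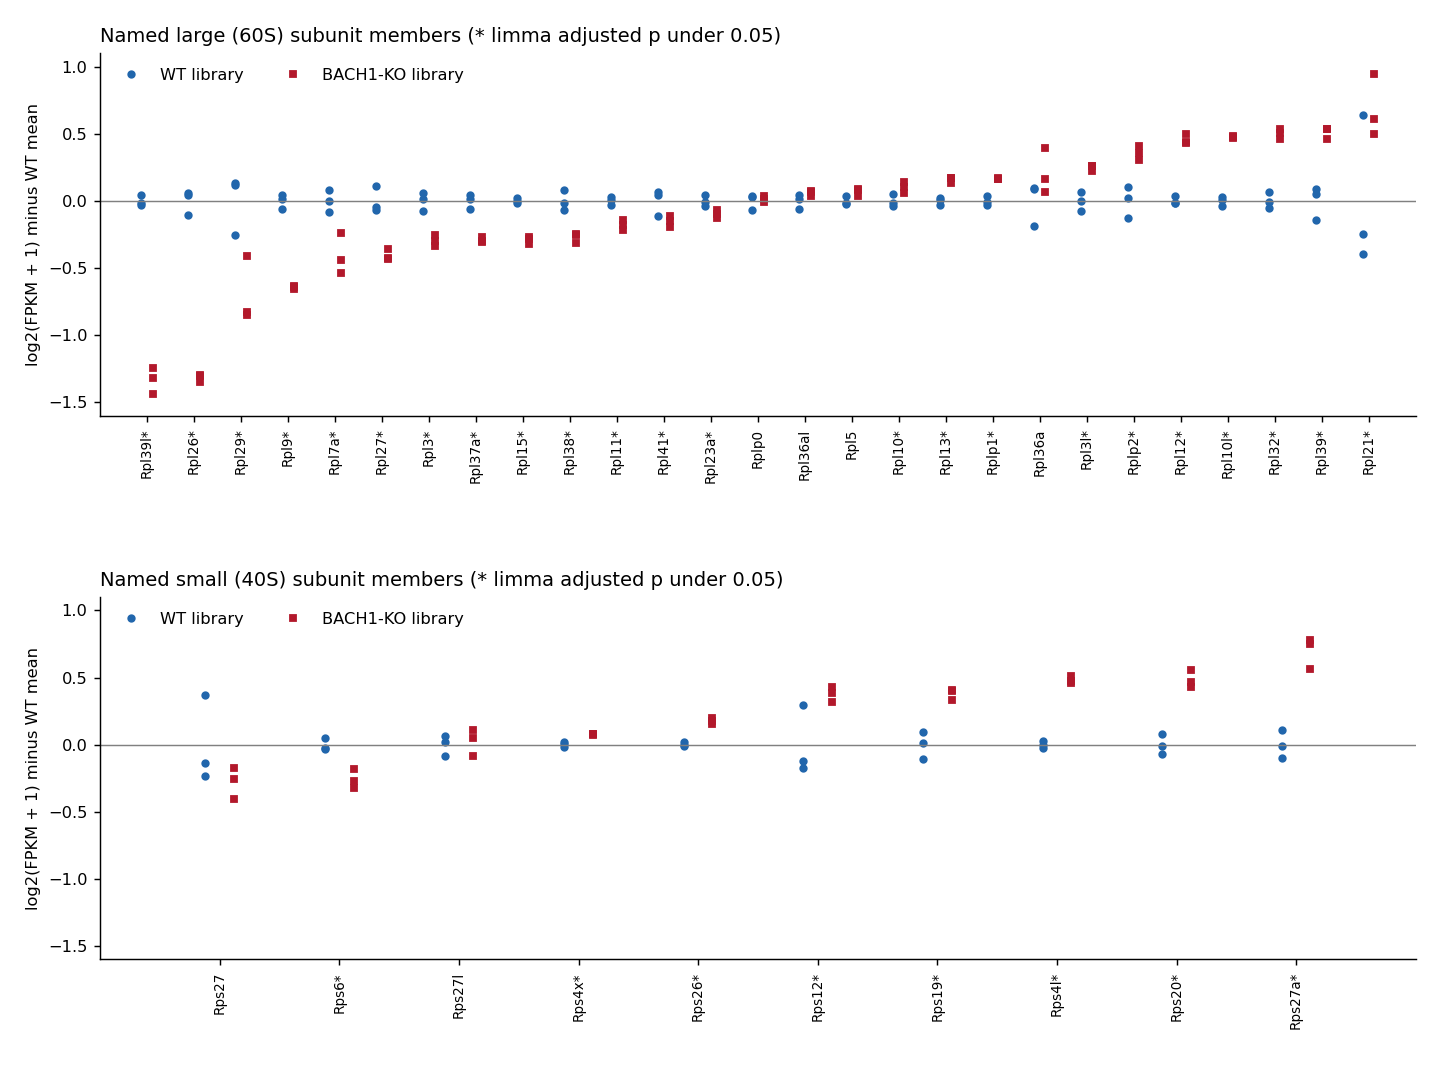
Log2(FPKM + 1) of 37 members in every library minus the WT mean of the gene, large subunit above and small subunit below, ordered by log2 fold change; circles are WT and squares BACH1-KO libraries, and an asterisk marks limma adjusted p under 0.05. The large subunit runs from -1.33 (Rpl39l) to 0.68 (Rpl21) and the small subunit from -0.28 (Rps27) to 0.70 (Rps27a).

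The large subunit was split, with 18 members higher, 19 lower and 13 not past the threshold, and a median log2 fold change of 0.01. The balance of its calls depended on scaling: it was 15 higher and 20 lower under median-of-ratios scaling, 23 and 15 under quantile normalization and 28 and 11 under equal FPKM of the other genes. Rpl26, a protein at the exit tunnel that is also known to bind the p53 mRNA, is a gene at chr11:68901583-68906989 (GENCODE M21, GRCm38, plus strand). It stood at 2341, 2628 and 2592 FPKM in WT and at 1021, 988 and 1018 FPKM in BACH1-KO. Every knockout library lay far below every WT library, and Rpl26 fell by 1.32 ± 0.05 (SE) on the log2 scale (adjusted p = 1.38e-07, limma). Rpl9, which sits near the base of the stalk, lies at chr5:65388364-65391444 on the minus strand. Its levels were 3535, 3728 and 3813 FPKM in WT and 2362, 2339 and 2377 FPKM in BACH1-KO. The groups were again apart, with a log2 fold change of -0.65 ± 0.04 (SE) (adjusted p = 1.18e-06, limma).

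Rpl27, at chr11:101442298-101445529 on the plus strand, had 2175, 2421 and 2136 FPKM in WT and 1667, 1663 and 1744 FPKM in BACH1-KO. It fell by 0.41 on the log2 scale (adjusted p = 1.23e-04, limma), with no overlap between groups. Rpl7a was at 3027, 2864 and 3218 FPKM in WT and 2230, 2564 and 2093 FPKM in BACH1-KO, also without overlap (log2 fold change -0.41, adjusted p = 0.00129, limma). Smaller falls of 0.27 to 0.29 on the log2 scale were seen in Rpl3, which reaches towards the peptidyl transferase centre, in Rpl15, in Rpl37a and in Rpl38, the gene of the Tail-short mouse. Rpl3 went from 1831 ± 87.2 to 1492 ± 39.2 FPKM and Rpl15 from 606 ± 7.86 to 495 ± 9.39 FPKM. Rpl38 went from 6139 ± 324 to 5090 ± 127 FPKM and Rpl37a from 1418 ± 53.5 to 1156 ± 15 FPKM. The calls of Rpl3 and Rpl37a were lost under quantile normalization. Rpl29 was a low row, at 6.38, 6.28 and 4.62 FPKM in WT and 4.05, 2.78 and 2.72 FPKM in BACH1-KO, and fell by 0.70 on the log2 scale (adjusted p = 0.00268, limma). The 2 groups of Rpl29 did not overlap, but its coding sequence has 17 other copies in the annotation with at least 95% identity, so its level is uncertain.

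Among the large-subunit members that were higher, Rpl39 had the largest change of those with separate groups. Rpl39, a short protein of the tunnel wall encoded at chrX:37082520-37085402 on the minus strand, stood at 2844, 3246 and 3331 FPKM in WT and 4325, 4547 and 4539 FPKM in BACH1-KO. All knockout libraries were above all WT libraries (log2 fold change 0.51 ± 0.06, SE, adjusted p = 8.49e-05, limma). Rpl32, at chr6:115805505-115808747 on the minus strand, was at 4842, 4998 and 5266 FPKM in WT and 6929, 7292 and 7149 FPKM in BACH1-KO. It rose by 0.50 ± 0.04 (SE) on the log2 scale (adjusted p = 1.06e-05, limma). Rpl21 was the exception in reliability, at 40.6, 76.3 and 36.6 FPKM in WT and 94.2, 68.8 and 74.5 FPKM in BACH1-KO. Its groups overlapped, and its call (log2 fold change 0.68, adjusted p = 0.0359, limma) was lost without the first or the third WT library (adjusted p = 0.113 and 0.111) and without the first or the third knockout library (adjusted p = 0.119 and 0.0658), while leaving out the second WT library raised the change to 1.01. Rpl21 has 55 other copies with at least 95% identity in the annotation.

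The members that build the GTPase centre and its stalk, where elongation factors bind, did not move evenly. Rpl12, at the base of the stalk and encoded at chr2:32961559-32965345 on the plus strand, stood at 5064, 5247 and 5071 FPKM in WT and 7238, 6935 and 6926 FPKM in BACH1-KO. It rose by 0.46 ± 0.03 (SE) on the log2 scale (adjusted p = 6.60e-06, limma), with no overlap. Rplp2, one of the flexible stalk proteins, had 3234, 3586 and 3805 FPKM in WT against 4376, 4686 and 4538 FPKM (adjusted p = 7.03e-04, limma, at a log2 fold change of 0.36), and its partner Rplp1 from 4663 ± 119 to 5239 ± 11.7 FPKM (log2 fold change 0.17, not past the threshold under quantile normalization). Rplp0, which anchors both to the ribosome, was at 1414, 1511 and 1518 FPKM in WT and 1473, 1517 and 1496 FPKM in BACH1-KO. Its groups overlapped, and the log2 fold change of 0.01 (95% interval -0.07 to 0.10) did not pass the threshold. Rpl5 and Rpl11, which join the 5S ribosomal RNA and can bind MDM2 outside the ribosome, stood side by side as follows. Rpl5 was at 1232 ± 29 FPKM in WT and 1292 ± 25.9 FPKM in BACH1-KO and did not pass (adjusted p = 0.0743, limma), and Rpl11 fell from 2361 ± 48.5 to 2085 ± 58.1 FPKM (adjusted p = 0.00131, limma). Under quantile normalization the change of Rpl11 was 0.04 rather than -0.18.

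All 7 listed proteins of the exit tunnel rim passed the threshold, as 77% of all tested genes did, with 4 higher (Rpl17, Rpl31, Rpl35 and Rpl39) and 3 lower (Rpl19, Rpl23a and Rpl26). The libraries of Rpl31 overlapped between groups, and its call held in 7 of 15 settings, the reported one included, as that of Rpl23a held in 5 of 15. Rpl35, which forms a docking site for the signal recognition particle, went from 2854 ± 69.8 to 3516 ± 16.5 FPKM (log2 fold change 0.30), and Rpl19 from 5058 ± 254 to 4388 ± 210 FPKM (log2 fold change -0.20). The 13 large-subunit members that did not pass were Rpl4, Rpl5, Rpl13a, Rpl24, Rpl27a, Rpl28, Rpl30, Rpl34, Rpl35a, Rpl36a, Rpl36al, Rpl37 and Rplp0. Of these, Rpl34 had the widest spread, with 42.0, 88.8 and 71.7 FPKM in WT and 99.7, 91.8 and 81.3 FPKM in BACH1-KO, which overlapped.

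The small subunit leaned one way: 16 members were higher, 2 were lower and 14 did not pass, with a median log2 fold change of 0.13. Under other scalings the counts were 15 higher and 4 lower (median-of-ratios), 13 and 6 (quantile) and 27 and 2 (equal FPKM of the other genes). Under quantile normalization the median was 0.0801 in the small and 0.0754 in the large subunit. There 13 of 32 small-subunit and 23 of 50 large-subunit members were higher, so the lean beyond the large subunit was not seen under that scaling. Proteins of the head of the subunit, the part that swivels as tRNAs move, had 9 of 14 higher, none lower and a median of 0.18. The head counts were 7 higher and 1 lower under quantile normalization. They were 9 and 1 under median-of-ratios scaling and also without the first WT library. Against a fold change of 1.2, 2 head members were higher and 0 lower. The other 16 standard small-subunit members had 6 higher, 2 lower and a median of 0.07, and the difference between the 2 sets was not tested. In the head list 9 of 14 is 64.3%, beside 37.3% of all tested genes called higher. The 5 head members that did not pass were Rps10, Rps16, Rps25, Rps28 and Rps29. Outside the head list the members that did not pass included Rps2, Rps7, Rps13, Rps14, Rps24, Rps27, Rps27l and Rpsa, although the libraries of Rps13 lay lower and those of Rps2 higher in BACH1-KO without overlap.

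Rps27a, made as a fusion that yields ubiquitin and a head protein and encoded at chr11:29545846-29548109 on the minus strand, had the largest rise of all members. It stood at 3298, 3807 and 3517 FPKM in WT and 6066, 5939 and 5237 FPKM in BACH1-KO. All knockout libraries were above all WT libraries (log2 fold change 0.70 ± 0.07, SE, adjusted p = 3.27e-05, limma). Rps20, at chr4:3831334-3835665 on the minus strand, was at 5152, 5458 and 4934 FPKM in WT and 7597, 6954 and 7143 FPKM in BACH1-KO. It rose by 0.48 ± 0.05 (SE) on the log2 scale (adjusted p = 4.06e-05, limma). Rps19, the gene most often mutated in Diamond-Blackfan anaemia, went from 1751, 1908 and 2019 FPKM to 2380, 2502 and 2488 FPKM, without overlap (log2 fold change 0.38, adjusted p = 2.40e-04, limma). Rps12 was at 2629, 2727 and 3639 FPKM in WT and 3993, 3875 and 3702 FPKM in BACH1-KO, where the third WT library came close to the knockout level. Its call (log2 fold change 0.38, adjusted p = 0.0141, limma) was lost without the second WT library (adjusted p = 0.05, just over the threshold).

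Both small-subunit members that fell lie outside the head. Rps6, the substrate of the S6 kinases downstream of mTORC1, stood at 1702, 1791 and 1693 FPKM in WT and 1520, 1378 and 1431 FPKM in BACH1-KO. Its groups did not overlap (log2 fold change -0.26, adjusted p = 6.69e-04, limma), though it did not pass under quantile normalization (adjusted p = 0.521). Rps15a, a protein of the body, was at 109, 115 and 112 FPKM in WT and 93.9, 91.4 and 93.7 FPKM in BACH1-KO (log2 fold change -0.26, adjusted p = 9.79e-05, limma). Rps9 and Rps21, both outside the head list, were higher by 0.24 and 0.25 on the log2 scale. Of the 19 members on a list of Diamond-Blackfan anaemia genes, 6 were higher, 5 lower and 8 did not pass, with a median of 0.07, beside 0.07 over all members.

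Paralogs changed with, against or without their standard partners, and of the 6 members of this kind 3 were higher, 1 was lower and 2 did not pass. Rpl39 and Rpl39l are shown because they moved in opposite directions and because neither has the sequence of the other. The 153-base coding sequences below come from GENCODE M21 transcripts (GRCm38), and capitals mark the 23 positions at which they differ (85.0% identity).
Rpl39: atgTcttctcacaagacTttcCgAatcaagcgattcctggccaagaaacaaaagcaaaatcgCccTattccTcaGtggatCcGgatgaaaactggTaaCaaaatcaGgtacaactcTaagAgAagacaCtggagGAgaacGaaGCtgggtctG
Rpl39l: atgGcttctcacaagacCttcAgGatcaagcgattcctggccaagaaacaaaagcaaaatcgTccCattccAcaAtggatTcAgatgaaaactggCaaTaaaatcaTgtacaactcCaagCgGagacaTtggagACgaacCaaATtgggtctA
Rpl39l, at chr16:10170226-10174911 on the plus strand, had 67.8, 64.9 and 64.5 FPKM in WT and 23.6, 25.7 and 27.2 FPKM in BACH1-KO. The groups were far apart, and Rpl39l fell by 1.33 ± 0.05 (SE) on the log2 scale (adjusted p = 2.18e-07, limma) while Rpl39 rose. Rpl39l thus made up 2.06% ± 0.233 of the pair's FPKM in WT and 0.567% ± 0.0259 in BACH1-KO.

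Rpl10l, an intronless copy of the X-linked Rpl10 at chr12:66283379-66284401 on the minus strand, went the other way. It was at 69.1, 66.7 and 70.2 FPKM in WT and 96.4, 96.0 and 95.5 FPKM in BACH1-KO. The groups did not overlap (log2 fold change 0.48 ± 0.03, SE, adjusted p = 2.84e-06, limma), and its share of the pair with Rpl10 went from 1.75% ± 0.05 to 2.27% ± 0.0672. Rpl10, whose joining completes the large subunit, was at 3860 ± 130 FPKM in WT and 4141 ± 115 FPKM in BACH1-KO (log2 fold change 0.10, adjusted p = 0.0378, limma), but the call was lost without the first or the second WT library (0.0746 and 0.102), without the second or the third knockout library (0.145 and 0.105) and under median-of-ratios scaling (0.187), and the change was -0.09 under quantile normalization. Of 6 male germ cell markers named, 4 had a row, 3 were tested and all 3 were higher in BACH1-KO. The rows summed to between 23.9 and 25.7 FPKM in the WT libraries and between 122 and 125 FPKM in the knockout libraries. Sycp3 made up most of the knockout sum (7.75 ± 0.607 FPKM in WT, 96.3 ± 1.91 FPKM in BACH1-KO). Ddx4 went from 9.06 ± 1.48 to 15.1 ± 0.359 FPKM and Dazl from 8.08 ± 0.199 to 12.4 ± 0.399 FPKM. Acrv1 was listed at 0 in every WT library, and the part of these genes in the levels of Rpl10l and Rpl39l was not tested.

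Rpl3l, at chr17:24727820-24736143 on the plus strand, was a low row, with 3.99, 3.77 and 3.53 FPKM in WT and 4.69, 4.69 and 4.56 FPKM in BACH1-KO. It rose by 0.25 on the log2 scale (adjusted p = 0.00712, limma, and 0.0984 under quantile normalization) while Rpl3 fell, and made up 0.206% ± 0.0225 of their sum in WT and 0.311% ± 0.00965 in BACH1-KO. The 6 heart and skeletal muscle markers summed to between 0.707 and 0.970 FPKM in WT libraries and between 2.21 and 2.47 FPKM in BACH1-KO libraries, and none reached the level for testing. Rps4l, annotated as a transcribed processed pseudogene at chr6:148354656-148355598, was at 623, 616 and 637 FPKM in WT and 861, 890 and 868 FPKM in BACH1-KO. It was higher by 0.48 ± 0.03 (SE) on the log2 scale (adjusted p = 1.70e-06, limma) without overlap, while its X-linked partner Rps4x went from 3430 ± 44.9 to 3613 ± 9.16 FPKM. The change of Rps4x, 0.08 on the log2 scale (adjusted p = 0.0398, limma), passed in 5 of 15 settings, was lost without any 1 library other than the first WT one (adjusted p between 0.0603 and 0.117) and was -0.06 under quantile normalization. Rpl36al (1601 ± 56.9 against 1664 ± 23.8 FPKM) and X-linked Rpl36a (1741 ± 190 against 2013 ± 241 FPKM) did not pass, and neither did Rps27l (977 ± 52.5 against 993 ± 66.3 FPKM), a target of p53.

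**Figure D4:**
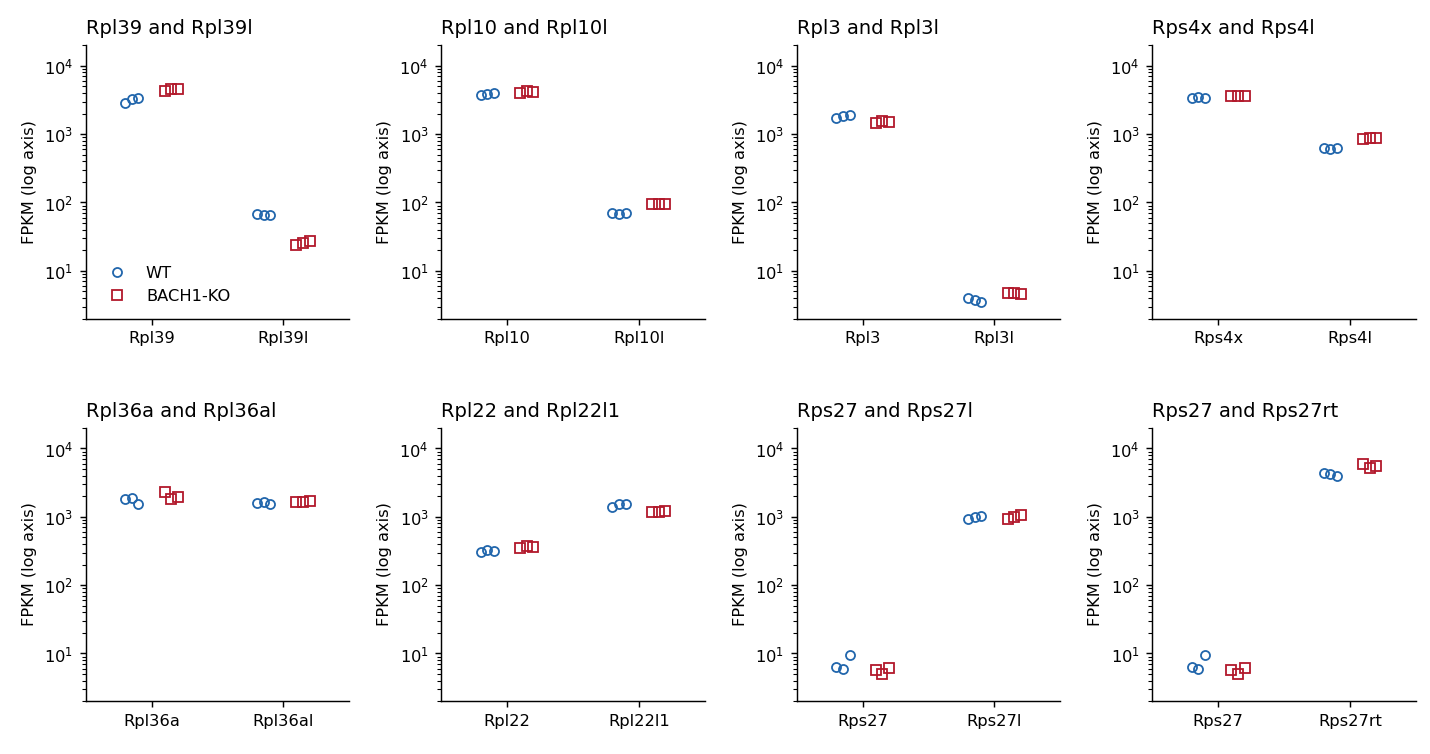
FPKM (log axis) of 8 pairs of related ribosomal protein genes in each library, circles for WT and squares for BACH1-KO. Rpl39 and Rpl39l separate in opposite directions, Rpl10l and Rps4l lie higher in BACH1-KO with little change in their partners, and Rps27 lies far under Rps27rt.

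Copies limit what a row of such a table can say. Of the 82 members, 75 had at least one other annotated transcript with 95% or more identity over at least 95% of the coding sequence, mostly processed pseudogenes, and 56 had one at 99% or more. How the authors' counting split such reads is not given in the sources used here. Rps27 shows the limit most plainly, since its 252-base coding sequence, printed once from its GENCODE M21 transcript, has 0 mismatches to that of Rps27rt, an intronless copy.
Rps27 and Rps27rt: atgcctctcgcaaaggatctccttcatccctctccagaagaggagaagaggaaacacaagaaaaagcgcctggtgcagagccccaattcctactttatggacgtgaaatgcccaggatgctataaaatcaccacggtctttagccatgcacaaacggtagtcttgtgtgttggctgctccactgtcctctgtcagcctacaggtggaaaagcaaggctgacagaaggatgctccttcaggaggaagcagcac
The row Rps27 held 6.32, 5.87 and 9.41 FPKM in WT and 5.75, 5.08 and 6.14 FPKM in BACH1-KO, which overlapped and did not pass (adjusted p = 0.121, limma). The row Rps27rt held 4335, 4251 and 3949 FPKM in WT and 5913, 5239 and 5453 FPKM in BACH1-KO, with no overlap (log2 fold change 0.40, adjusted p = 2.03e-04, limma). Neither row can be assigned to one of the 2 genes from its coding sequence, and Rps27rt is no member by its symbol.

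Members with a 99% copy varied more between libraries, with a median coefficient of variation of 5.05% in WT and 2.80% in BACH1-KO, against 2.97% and 1.72% for the 26 members without. These 26 had 13 higher and 5 lower, and a median log2 fold change of 0.05. The 9 members under 200 FPKM had medians of 9.76% and 9.45%. The other ribosomal protein rows showed the same mixture. Gnb2l1, which encodes the small-subunit head protein RACK1, went from 4125, 4373 and 4734 FPKM to 5789, 6151 and 6040 FPKM, and Rps3a1 from 940 ± 42.8 to 1282 ± 53.2 FPKM. Both rose, by 0.44 and 0.45 on the log2 scale. Fau, with 1833, 1974 and 1494 FPKM in WT and 2092, 1547 and 1515 FPKM in BACH1-KO, overlapped and did not pass. Rpl22l1 fell from 1494 ± 89.4 to 1178 ± 16.2 FPKM (log2 fold change -0.34), whereas its paralog Rpl22 rose from 320 ± 10.1 to 363 ± 7.07 FPKM (log2 fold change 0.18). Rpl7l1, a nucleolar relative of Rpl7, rose from 68.9 ± 2.57 to 131 ± 0.605 FPKM. Of 6 tested pseudogene rows, Rplp2-ps1 was higher (log2 fold change 0.46), Rpl14-ps1 was lower (log2 fold change -0.40) and 4 did not pass.

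Promoter sequences from RefSeq (GRCm38.p6, 250 bases before to 50 after each start) were found for 61 of the 82 members, 73 promoters in all, and were compared with 32851 promoters of all genes. Motifs were searched on both strands, except the pyrimidine run, which was read on the sense strand. The GABPA core CCGGAAG was in 35.6% of member promoters and 8.858% of all. The SP1 core GGGCGG was in 58.9% against 35.658%, and the YY1 core AAGATGGC in 9.6% against 2.749%. The E-box CACGTG was in 11% against 7.15%, and TATAAA in 8.2% against 13.616%. The antioxidant response element core TGACNNNGC, the kind of site BACH1 binds, was in 19.2% of member promoters and 12.392% of all. A pyrimidine run of at least 6 bases that reached within 10 bases of the start, on either side, was in 52.1% against 29.199%. A TOP tract begins at the cap, whereas this run may lie before or after the start, so it does not mark a TOP mRNA. The median log2 fold change was 0.03 for the 25 members with the GABPA core and 0.09 for those without. It was 0.06 both for the 12 members with the antioxidant response element core and for those without, and 0.03 and 0.06 with and without the pyrimidine run. With and without TATAAA it was 0.165 (6 members) and 0.035, and with and without the E-box -0.06 (6 members) and 0.069. For the YY1 core it was -0.008 (5 members) and 0.063, and for the SP1 core 0.075 (37 members) and 0.017. These differences were not tested. A match is a description of letters and not of binding.

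Promoter stretches from 80 bases before to 20 after the start are printed for 2 members that rose, 3 that fell and Rpl3l, which holds the antioxidant response element core. Capitals mark the SP1 core and the pyrimidine run in Rpl12, the pyrimidine run in Rpl39 and in Rpl39l, the GABPA core in Rpl26 and the antioxidant response element core on the other strand in Rpl3l, while Rpl9 has none of these in the stretch. In the order printed they lie at chr2:32961632-32961731 (plus), chrX:37085203-37085302 (minus), chr11:68901486-68901585 (plus), chr5:65391412-65391511 (minus), chr16:10170148-10170247 (plus) and chr17:24727746-24727845 (plus).
Rpl12: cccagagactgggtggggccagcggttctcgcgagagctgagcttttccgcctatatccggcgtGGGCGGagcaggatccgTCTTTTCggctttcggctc
Rpl39: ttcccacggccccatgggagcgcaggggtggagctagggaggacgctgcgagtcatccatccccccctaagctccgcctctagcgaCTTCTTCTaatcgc
Rpl26: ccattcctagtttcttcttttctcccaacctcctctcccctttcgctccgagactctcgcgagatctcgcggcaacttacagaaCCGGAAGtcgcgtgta
Rpl9: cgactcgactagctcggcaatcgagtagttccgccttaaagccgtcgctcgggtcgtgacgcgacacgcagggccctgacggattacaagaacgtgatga
Rpl39l: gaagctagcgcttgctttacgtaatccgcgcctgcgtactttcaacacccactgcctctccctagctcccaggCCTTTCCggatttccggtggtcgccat
Rpl3l: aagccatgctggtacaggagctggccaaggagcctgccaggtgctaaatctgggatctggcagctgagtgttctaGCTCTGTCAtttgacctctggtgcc
The run was found in members of either direction, in Rpl12 and Rpl39, which rose, and in Rpl39l, Rpl15, Rpl38, Rpl7a and Rps6, which fell, and it was not found in Rpl10l, which rose, or in Rpl26, which fell.

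The members are spread over 19 of the 20 chromosomes compared, and chromosomes with few other tested genes were left out. Their changes are given here beside those of the other genes of the chromosome. Chromosome 6 had the highest median log2 fold change of its other genes, 0.31 over 568 genes, with 59.5% called higher, and both of its members, Rps4l and Rpl32, rose. Chromosome 11 had the lowest, -0.12 over 1040 genes, and of its 7 members 6 fell (Rpl19, Rpl23, Rpl23a, Rpl26, Rpl27 and Rpl38) and 1, Rps27a, rose. Chromosome 7 held 14 members, 7 higher, 1 lower and 6 not past, beside a median of 0.02 for its other genes. On the X chromosome Rpl39 rose, the small changes of Rpl10 and Rps4x passed in some settings only, and Rpl36a did not pass. The part of these chromosome-wide shifts in the members' changes was not tested.

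**Figure D5:**
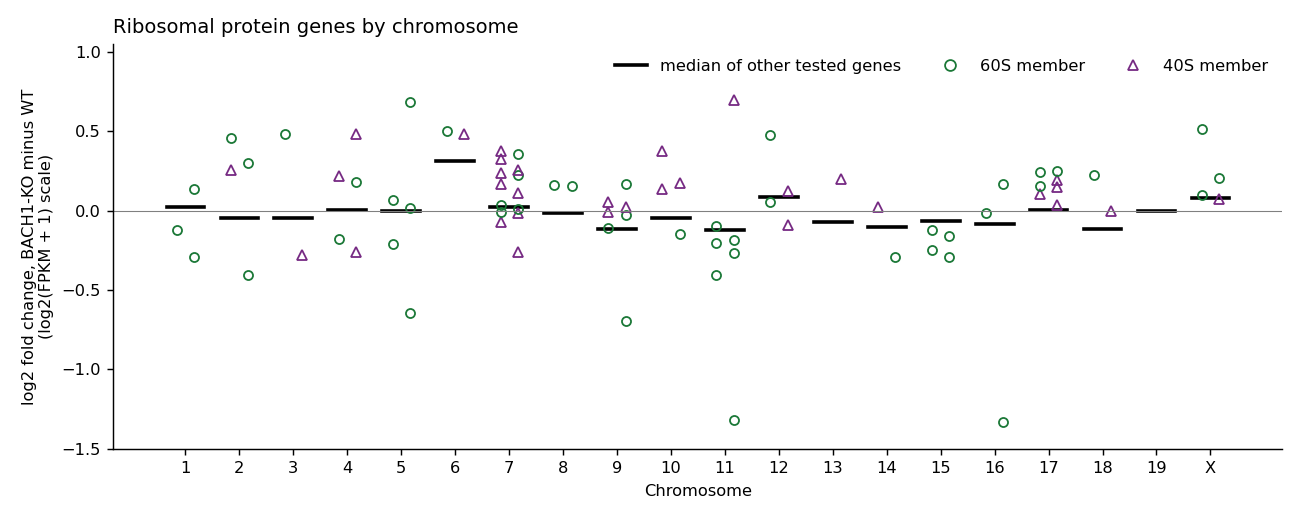
Log2 fold change of each member (circles, large subunit; triangles, small subunit) by chromosome, with a black bar at the median of the other tested genes there. The bar is highest on chromosome 6 (0.31), where both members are positive, and lowest on chromosome 11 (-0.12), where 6 of 7 members are negative and Rps27a is the exception.

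Neighbouring genes, chosen after their values were seen, were compared with some of the members that changed, and not every neighbour is given. A neighbour here is the nearest tested gene on a side, at any distance. Beside Rpl26, Ndel1 fell by 0.35 and Arhgef15 by 1.22 on the log2 scale. For Rpl39l, which fell, the nearest tested gene on one side, 1810013L24Rik, lies 1311273 bases away and rose by 0.18. On its other side Atf7ip2, 17738 bases away, did not pass. Cand2, whose annotated span touches or overlaps that of Rpl32, rose by 2.14 on the log2 scale, from 1.08 ± 0.0608 to 8.16 ± 0.455 FPKM. Rfc1, 49747 bases from Rpl9, fell by 1.24. Cand2 and Rfc1 both moved in the direction of their member. Slc2a8, beside Rpl12, fell by 0.32 and Lyn, beside Rps20, by 0.69, both against the member's direction. Lias, which lies 66 bases from Rpl9, fell with it, from 81.7 ± 2.01 to 37.4 ± 1.59 FPKM (adjusted p = 1.52e-07, limma, at a log2 fold change of -1.11). Mtif2, 390 bases from Rps27a, rose with it, from 24.4 ± 1.88 to 42.5 ± 1.18 FPKM (adjusted p = 4.82e-06, limma, at a log2 fold change of 0.78). Clhc1, whose annotated span touches or overlaps that of Rps27a on the other side, fell, from 25 ± 1.08 to 22.9 ± 0.930 FPKM (adjusted p = 0.0424, limma). Rpl7a lies 43 bases from Med22, which rose from 15.6 ± 1.12 to 28.9 ± 0.908 FPKM, and 66 bases from Surf1 (26.5 ± 0.711 against 26.8 ± 2.50 FPKM), which did not pass, whereas Rpl7a fell. Lrsam1, 58 bases from Rpl12, was at 2.93 ± 0.0463 and 2.67 ± 0.184 FPKM and did not pass.

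Genes that work with ribosomal proteins were counted in lists. Of 14 other TOP mRNAs, which encode translation factors and their partners, 5 were higher and 7 lower, with a median log2 fold change of -0.14 beside 0.07 for the members. Eif4b fell by 0.90, Hnrnpa1 by 0.84 and Eef1d by 0.77 on the log2 scale, while Tpt1 rose by 0.67. Of 31 genes of mTORC1 and its regulators, 13 were higher and 11 lower. Sesn2, a sensor that restrains mTORC1 when leucine is short, went from 12.3, 11.2 and 11.4 FPKM to 38.2, 41.8 and 41.7 FPKM (log2 fold change 1.72). Rragb (log2 fold change 1.67), Ddit4 (log2 fold change 1.37), an inhibitor of mTORC1, and Eif4ebp1 (log2 fold change 0.80), a repressor of cap-dependent translation, also rose, whereas Sesn1, of the same family as Sesn2, fell from 30.3 ± 1.42 to 16.2 ± 0.945 FPKM (log2 fold change -0.87).

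Of 12 chaperones and importers dedicated to ribosomal proteins, 5 were higher and 5 lower. Ipo5, an importin that carries ribosomal proteins into the nucleus, fell from 219 ± 0.748 to 99.9 ± 3.04 FPKM, and Ipo7 from 122 ± 2.21 to 84.3 ± 1.23 FPKM. Pdcd2, the chaperone of the small-subunit protein Rps2, rose from 42.2 ± 0.745 to 78.6 ± 2.96 FPKM, while Rps2 itself (4131 ± 242 against 4438 ± 60.6 FPKM) did not pass. Zfp622, which acts late in large-subunit maturation, rose by 0.68 on the log2 scale. Among 13 transcription factors with sites in ribosomal protein promoters, 3 were higher and 6 lower. Gabpa fell from 58.2 ± 0.389 to 34.2 ± 0.386 FPKM, Sp1 from 28.3 ± 0.964 to 20.7 ± 0.467 FPKM, Max from 57.8 ± 0.409 to 44.2 ± 0.914 FPKM and Myc from 12.4 ± 3.96 to 1.44 ± 0.319 FPKM. Of 15 tested factors of ribosome stalling and collision, 6 were higher and 7 lower, with falls of 1.02 in Nemf, 0.62 in Ascc3, 0.47 in Ascc2 and 0.44 in Ltn1 and a rise of 0.73 in Pelo, a ribosome rescue factor, on the log2 scale. Across the 97 genes in these lists and rows, 37 were higher and 38 lower, close to the shares over all tested genes.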

How the data were processed

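RNA sequencing libraries of 3 WT and 3 BACH1-KO E14Tg2A cells were prepared with an Illumina TruSeq kit from Trizol RNA, per the labels' protocols. The authors deposited 1 table of FPKM per gene symbol and library, made with Cufflinks on mm10, per the submitters' processing notes. Not given in the sources used here are versions, the aligner, the gene annotation and the treatment of multiply mapping reads. Values are relative to the mapped fragments of the library, so a rise of abundant transcripts lowers the others. The absolute depth is unknown, so no counting interval could be given. An exact 0 can be a failed estimate. The 23 rows without a symbol (0.0987% of FPKM) were left out.

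The test was limma (version 3.58.1, R 4.3.3; lmFit, eBayes with a trend, two-sided, Benjamini-Hochberg over all genes) on log2(FPKM + 1) of the 12187 genes averaging 1 FPKM or more. The threshold is an adjusted p of 0.05. Log2 fold changes, BACH1-KO minus WT, are differences of log2(FPKM + 1), so changes of low genes are understated. Levels are means ± SD over 3 libraries and SE is the moderated one. The script was tested on simulated data. Copies were found with BLAST+ 2.17.0 among GENCODE M21 transcripts. Promoters are RefSeq's.

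Named are the 10 members with the largest rise and the 10 with the largest fall past the threshold, the 5 most abundant, the stalk, 5S, ubiquitin, paralog and X-linked groups, Rps6, and up to 4 genes a list by adjusted p; others were chosen after their values were seen. The plot by library shows the members named by this rule, and some other members are counted but not reported here by name. Members and lists were chosen with earlier results of these data known. Alternatives changed the pseudocount, the filter, the scaling, the variance prior, the fold tested and the libraries used.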

Additional observations from a re-analysis of the deposited data

How the results depend on the processing

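With each of the 6 libraries left out in turn, 29 to 33 members were higher and 19 to 22 lower, with a median log2 fold change of 0.06 to 0.09. Of 37 named members, 12 kept their direction and their side of the threshold under every alternative. The members' median was 0.0301 under median-of-ratios scaling. Scaling to equal FPKM of the other genes gave 55 members higher and 13 lower and a median of 0.20, and shifted the median of all tested genes from -0.01 to 0.10. Tested against a fold change of 1.2, 7 members were higher and 5 lower, and 16 related genes were higher and 23 lower. Without members that have a copy of at least 99% identity, a choice made after seeing the data, 13 were higher and 5 lower, out of 26 members. Without the 10 most abundant other genes in the total, members held 31.1% in WT and 34.7% in BACH1-KO; with the standard proteins of other symbols added they held 29.9% and 33.5%.

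Quantile normalization turned Rpl10 to -0.092, Rpl11 to 0.0388 and Rps4x to -0.0601. Equal FPKM of the other genes turned Rpl23a to 0.0312. Median-of-ratios scaling turned Rplp0 to -0.0276 and Rps27l to -0.0197. With 1 library left out at a time, Rplp0 ranged from -0.0185 (without the first WT library) to 0.0327, and Rps27l from -0.0204 (without the same library) to 0.0759, with -0.0193 without the third BACH1-KO library. Neither Rplp0 nor Rps27l passed the threshold as reported. The cause of these turns was not tested. No paired analysis was possible because the columns' numbers cannot be tied to sample titles. The depth is unknown, and rows under 10 FPKM and rows with near-identical copies (Rpl29, Rps27, Rpl21) are the least certain.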
